A study of Mus musculus with 8 samples.

Results

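The transcripts described here encode the vascular endothelial growth factor (VEGF) ligands Vegfa, Vegfb, Vegfc and Pgf, the VEGF receptors Flt1 and Kdr, the angiopoietins Angpt1 and Angpt2 and their receptors Tek and Tie1. They were chosen by name, as the probe rows of the array whose gene symbol was 1 of these 10. Of the 10 symbols, 8 were listed as such, with 11 probe rows, and Angpt2 was listed under its older symbol Agpt2 with 2 rows, so that 9 genes and 13 of the 25697 probe rows were found. No row was matched to Angpt1. In total 11 of the 13 rows, covering all 9 genes, were detected on at least 1 array and were tested, among 14967 probes of the whole array.

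In the glomerulus, podocytes secrete VEGF-A across the basement membrane to the fenestrated endothelium, which carries its receptors, and too little or too much of it is known to damage the filter. KDR is the main signalling receptor, whereas FLT1 binds VEGF-A tightly but signals weakly and also takes up VEGF-B and placental growth factor, the product of Pgf. VEGF-C acts mostly through FLT4, the receptor of lymphatic vessels that glomerular endothelium also carries. Angiopoietin-1 activates the receptor TEK (also called TIE2) and steadies vessels, angiopoietin-2 is made by endothelial cells and often opposes it, and TIE1 is a partner of TEK with no ligand of its own among the angiopoietins.

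Glomeruli came from 3-week-old male FVB/N animals that were either Cd151-/-, lacking the tetraspanin CD151, or Cd151+/+ controls, with 4 mice per genotype. The loss was in all cells of the animal. Glomeruli were collected with magnetic beads perfused through the heart, and RNA of 1 mouse was hybridised to each Illumina MouseRef-8 v1.1 array. The comparison asks whether the transcripts of this signalling system differed between the genotypes at an early stage of the glomerular disease. Levels below are normalised log2 signals, so that a difference of 1 is a doubling, and each array's background is the median signal of its probes with a detection p-value above 0.5. Signals of different probes are not comparable with each other. A bulk sample cannot tell fewer cells of a type from less RNA per cell.

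The labels were checked on Cd151 itself, whose 3 probes were each above background on all 4 control arrays and on 0 of 4 knockout arrays. The brightest of them was at least 523-fold lower in Cd151-/- mice (limma, adjusted p = 6.51e-10). The podocyte marker Cdkn1c, and 11 of 12 endothelial markers, were detected on all 8 arrays, the exception being Erg. Proximal tubule markers were present too, and all 9 tested were higher in Cd151-/- mice (median difference 0.56, 0 past adjustment by limma and 1, Kap, at an unadjusted p under 0.05). Of the 9, 6 were detected on all 8 arrays. Lrp2, Pck1 and Gatm were detected in 0 Cd151+/+ mice and in 2, 2 and 1 Cd151-/- mice. They entered the test only through the genotype where they were higher, so their direction adds little to the count. The arrays fell into 2 sets by background. In Cd151+/+ mice 1 and 2 and Cd151-/- mice 3 and 4 it lay between 54.7 and 64.7 units, and in Cd151+/+ mice 3 and 4 and Cd151-/- mice 1 and 2 between 113 and 121 units. The labels do not say what the sets are. Detected probes numbered 11291 to 11381 per array in the lower-background set and 11800 to 12359 in the higher-background set. Their median signal was 3.23 to 3.61 and 3.77 to 4.96 times background, so the sets also differed in sensitivity. Each set held 2 mice of each genotype, so genotype and set could be fitted together, and values within the lower and then the higher set are given beside many of the results.

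No probe of the VEGF and angiopoietin genes passed adjustment between the genotypes. Of the 11 probes tested, 6 were higher and 5 lower in Cd151-/- mice, with a median log2 difference of 0.086, against -0.0073 over all 14967 probes, and adjusted p-values from 0.918 to 0.962 (limma). With only the probe of highest mean for each of the 9 genes, 4 were higher and 5 lower, and the median was -0.25. Kdr was detected in 2 Cd151+/+ and 0 Cd151-/- mice, and the second Angpt2 probe in 0 and 1. Each entered the test only through the genotype where it was higher. Over all probes, 5 passed an adjusted p of 0.05, or 0.0334%. At an unadjusted p under 0.05 there were 2 of the 11, Vegfc and Pgf, against 4.30% of all probes. The same 2 probes were those whose genotype groups did not overlap, against 2.31% of all probes. With the set of arrays in the fit, 0 of the 11 passed adjustment, against 0.0535% of all probes, and the same 2 had an unadjusted p under 0.05, against 11.3%. Vegfc ranked 162 and Pgf 123 by p among the probes tested.

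**Figure D1:**
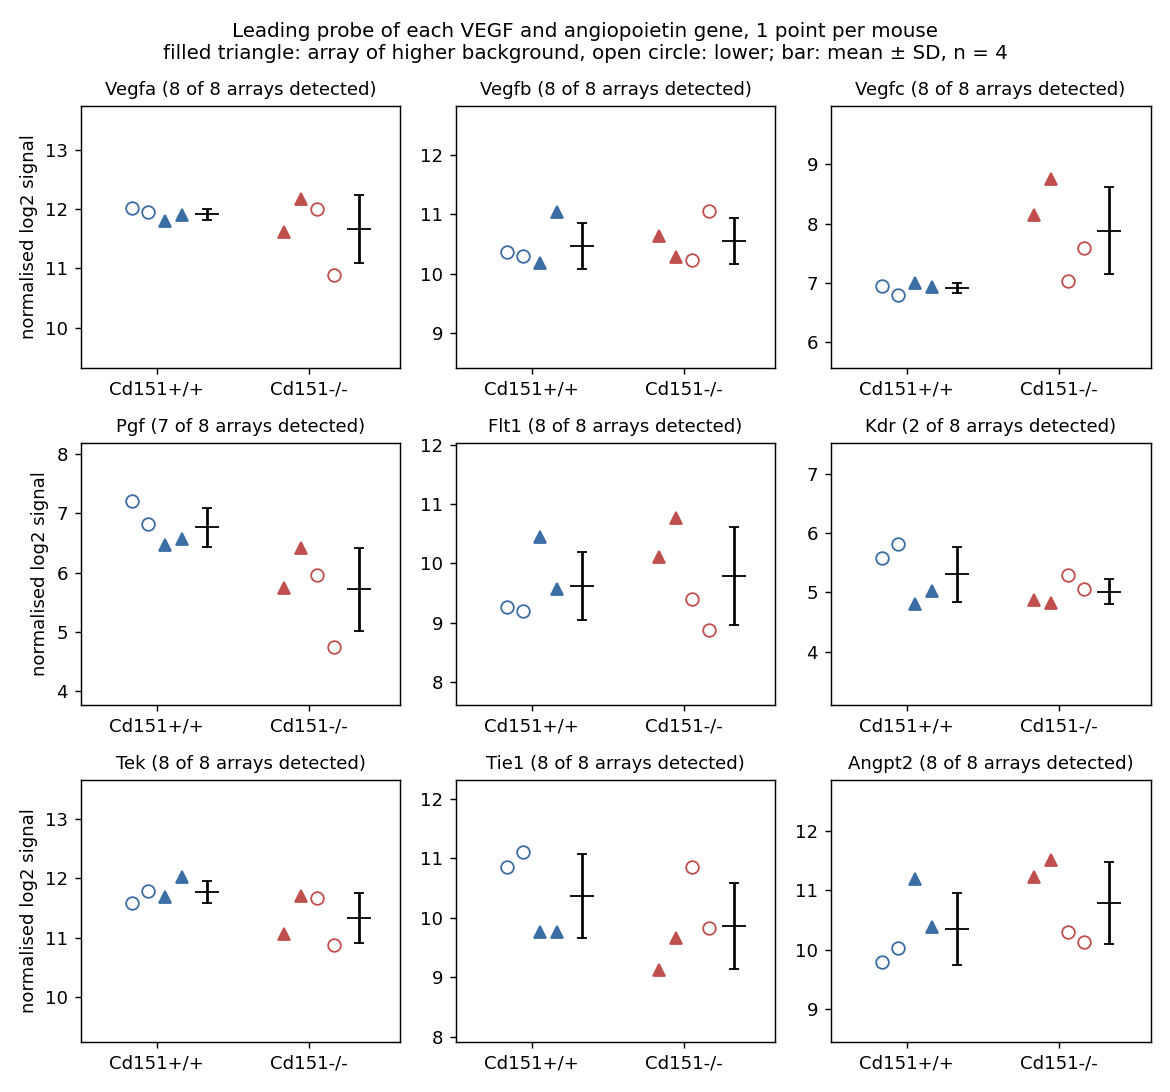
Normalised log2 signal of the leading probe (highest mean over the 8 mice) of 9 VEGF and angiopoietin genes in each mouse, with the mean and SD of 4 mice per genotype as a bar and whiskers. Filled triangles mark the 4 arrays with higher background and open circles the 4 with lower background; the genotypes do not overlap for Vegfc and Pgf, and the sets of arrays do not overlap for Flt1, Tie1, Angpt2 and Kdr.

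Promoters are shown for Vegfc and Pgf, which stood apart by genotype, and for Flt1 and Tie1, 2 of the genes that stood apart by set of arrays and in opposite directions. Those of Kdr and Vegfa, each with a probe that differed between sets, are not printed, and no promoter was matched for Angpt2. Each is the 250 bases before a transcription start in RefSeq's GRCm38.p6 assembly, written 5′ to 3′ on the gene's strand, at chr8:54077282-54077531 (plus strand) for Vegfc, chr12:85177314-85177563 (minus strand) for Pgf, chr5:147726012-147726261 (minus strand) for Flt1 and chr4:118489850-118490099 (minus strand) for Tie1. Capitals mark matches, on either strand, to GGGCGG (the GC box), AGGAAG (a core bound by ETS factors, which act in endothelial cells) and ACGTG (the core of the hypoxia response element). These letters occur in 32.7%, 29.5% and 16.6% of 32851 promoters of the same length.
Vegfc: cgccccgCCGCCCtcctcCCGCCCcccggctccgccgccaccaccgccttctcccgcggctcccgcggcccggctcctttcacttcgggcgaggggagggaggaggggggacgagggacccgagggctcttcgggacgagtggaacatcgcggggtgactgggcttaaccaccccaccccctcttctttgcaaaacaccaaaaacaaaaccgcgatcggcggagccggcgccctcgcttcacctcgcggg
Pgf: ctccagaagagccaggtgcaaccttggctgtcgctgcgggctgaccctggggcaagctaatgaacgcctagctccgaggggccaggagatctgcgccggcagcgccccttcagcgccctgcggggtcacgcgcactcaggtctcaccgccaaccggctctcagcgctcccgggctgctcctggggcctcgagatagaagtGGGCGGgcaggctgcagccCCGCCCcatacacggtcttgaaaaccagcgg
Flt1: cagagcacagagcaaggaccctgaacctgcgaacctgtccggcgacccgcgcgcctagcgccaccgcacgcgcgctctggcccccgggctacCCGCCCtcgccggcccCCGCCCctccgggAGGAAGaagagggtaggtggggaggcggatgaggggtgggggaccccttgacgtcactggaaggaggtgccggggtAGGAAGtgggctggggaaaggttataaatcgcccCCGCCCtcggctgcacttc
Tie1: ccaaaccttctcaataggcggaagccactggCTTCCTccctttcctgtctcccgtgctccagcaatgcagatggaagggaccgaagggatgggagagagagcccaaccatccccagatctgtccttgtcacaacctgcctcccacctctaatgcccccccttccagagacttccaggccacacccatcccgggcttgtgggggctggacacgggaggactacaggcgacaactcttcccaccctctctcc
Vegfc and Pgf each held 2 GC boxes and neither of the other motifs, Flt1 held 3 GC boxes and 2 ETS cores, and Tie1 held 1 ETS core. The table gives a second start for Pgf, with none of the motifs. A match describes the letters only and is not a binding site.

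Vegfa, the podocyte-derived ligand, did not differ between genotypes beyond the spread. Its leading probe, ILMN_3121255, read 12.01, 11.95, 11.79 and 11.90 in Cd151+/+ mice 1 to 4, and 11.61, 12.17, 12.00 and 10.89 in Cd151-/- mice 1 to 4. The control mice lay within a narrow band, whereas the Cd151-/- mice lay on both sides of it, with mouse 4 farthest below. The means were 11.91 ± 0.093 and 11.67 ± 0.57 (SD, n = 4 each), and the log2 difference was -0.25 (95% interval -0.86 to 0.37, limma adjusted p = 0.918). It was -0.53 and 0.043 within the sets, and 0.013 without Cd151-/- mouse 4.

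A second Vegfa probe, ILMN_2484527, followed the set of arrays and not the genotype. It read 8.16 and 7.88 in Cd151+/+ and 8.43 and 7.73 in Cd151-/- mice of the lower-background set, and 9.59 and 9.88 in Cd151+/+ and 9.95 and 11.01 in Cd151-/- mice of the higher-background set. All 4 mice of the higher set lay above all 4 of the lower set, by 2.06 on the log2 scale or 4.16-fold (SE 0.28, limma adjusted p = 0.00203). The genotype difference of this probe was 0.40 (adjusted p = 0.929). Within an array, its level minus that of the leading Vegfa probe ran from -4.07 to -3.16 in the lower set and from -2.20 to -1.15 in the higher set, so the 2 probes of the gene changed unequally. The third Vegfa probe was not detected on any array and was not tested.

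Vegfb, a ligand of FLT1 alone among the VEGF receptors, was close to equal in the genotypes. It read between 10.17 and 11.03 in Cd151+/+ and between 10.23 and 11.06 in Cd151-/- mice, with means of 10.46 ± 0.38 and 10.55 ± 0.38 (SD, n = 4 each). The log2 difference was 0.086 (95% interval -0.51 to 0.68, limma adjusted p = 0.962). It was 0.32 and -0.14 within the sets. In each genotype it was mouse 4 that read highest.

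Vegfc, the ligand of FLT4, was higher in every Cd151-/- mouse than in any Cd151+/+ mouse, without passing adjustment. It read 6.95, 6.80, 7.00 and 6.93 in Cd151+/+ mice 1 to 4, and 8.14, 8.75, 7.04 and 7.60 in Cd151-/- mice 1 to 4. The controls were nearly level, the Cd151-/- mice of the higher-background set stood highest, and Cd151-/- mouse 3 lay just above the highest control. The means were 6.92 ± 0.083 and 7.88 ± 0.73 (SD, n = 4 each), a difference of 0.96 (SE 0.33) or 1.95-fold (95% interval 1.18 to 3.21), with a limma unadjusted p of 0.0136 and an adjusted p of 0.918. The two-sided exact permutation p was 0.0286, the smallest that 70 relabelings can give. Any probe whose genotypes do not overlap gives this p, so here and below it only restates the lack of overlap. In the lower set the genotype difference was 0.44 and in the higher set 1.48. The interaction between genotype and set was 1.04 (unadjusted p = 0.0341, adjusted p = 0.977, limma), and with the set in the fit the genotype difference had an adjusted p of 0.355. The signal of this probe was 1.69 to 2.61 times background in Cd151+/+ mice and 1.79 to 7.33 times in Cd151-/- mice, so it was read near the low end of the range on most arrays.

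Pgf, which encodes placental growth factor, was lower in every Cd151-/- mouse than in any Cd151+/+ mouse, again without passing adjustment. It read 7.20, 6.81, 6.46 and 6.57 in Cd151+/+ mice 1 to 4, and 5.73, 6.41, 5.96 and 4.75 in Cd151-/- mice 1 to 4. Cd151-/- mouse 2 lay just below the lowest control, and in Cd151-/- mouse 4 the probe was not detected. The means were 6.76 ± 0.33 and 5.72 ± 0.70 (SD, n = 4 each), a difference of -1.05 (SE 0.34), with the control mean 2.06-fold higher, a limma unadjusted p of 0.0103 and an adjusted p of 0.918. The size rests on the correction near background, since the Cd151-/- mean includes the undetected value of mouse 4, and with the deposited signals and no normexp the difference was -0.46 (unadjusted p = 0.0185). The two-sided exact permutation p was 0.0286. Within the lower set the difference was -1.65 and within the higher set -0.44. With the set in the fit the adjusted p was 0.369. Its signal was at most 2.21 times background on any array.

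**Figure D2:**
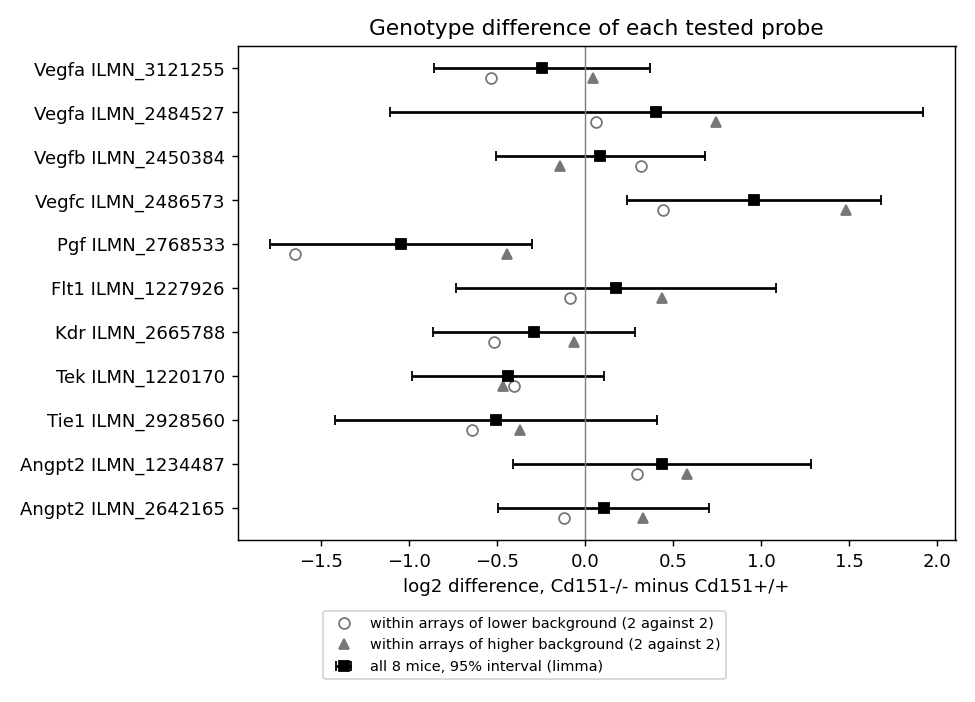
Log2 difference between Cd151-/- and Cd151+/+ mice for each tested probe of the VEGF and angiopoietin genes (points) with the 95% interval from limma (lines, 4 mice per genotype), and the same difference within the lower-background and the higher-background set of arrays. The intervals of Vegfc (0.24 to 1.68) and Pgf (-1.79 to -0.30) leave out 0 before adjustment, and every other interval includes it.

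Flt1, the receptor that binds VEGF-A, VEGF-B and placental growth factor, differed between sets of arrays and not between genotypes. Its leading probe read 9.26, 9.19, 10.44 and 9.56 in Cd151+/+ mice 1 to 4, and 10.11, 10.77, 9.40 and 8.88 in Cd151-/- mice 1 to 4. The genotypes overlapped throughout, whereas the 4 mice of the higher-background set stood above the other 4. The genotype means were 9.61 ± 0.57 and 9.79 ± 0.82 (SD, n = 4 each), with a log2 difference of 0.18 (95% interval -0.73 to 1.09, limma adjusted p = 0.953), and of -0.088 and 0.44 within the sets. The set difference was 1.04, or 2.05-fold (adjusted p = 0.0184). Without Cd151+/+ mouse 3 the set difference was 0.92 with an adjusted p of 0.0599. A second Flt1 probe was not detected on any array.

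Kdr, the main signalling receptor of VEGF-A, could not be measured with its 1 probe, which was detected in Cd151+/+ mice 1 and 2 and in no other mouse. Its signals were 1.14 to 1.34 times background, with log2 levels of 4.81 to 5.81 in Cd151+/+ and 4.82 to 5.29 in Cd151-/- mice. No fold is given, since the bound set by the detection limit is below 1. The limma adjusted p between the genotypes was 0.918. A low signal of 1 probe does not say that the transcript was absent.

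Tek, the receptor of the angiopoietins, read 11.58, 11.78, 11.68 and 12.02 in Cd151+/+ mice 1 to 4, and 11.06, 11.71, 11.67 and 10.89 in Cd151-/- mice 1 to 4. Cd151-/- mice 1 and 4, which belong to different sets of arrays, were below all controls, and the others lay among them. The means were 11.77 ± 0.19 and 11.33 ± 0.42 (SD, n = 4 each), and the log2 difference of -0.44 (95% interval -0.98 to 0.11) did not pass (limma adjusted p = 0.918). It was -0.41 in the lower and -0.47 in the higher set, and its set difference was 0.14 (adjusted p = 0.674).

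Tie1, the partner of TEK, was lower in the higher-background set, opposite to Flt1. It read 10.85, 11.10, 9.76 and 9.76 in Cd151+/+ mice 1 to 4, and 9.12, 9.66, 10.84 and 9.83 in Cd151-/- mice 1 to 4. The 4 mice of the lower set stood above the other 4, and the genotypes overlapped. The genotype means were 10.37 ± 0.71 and 9.86 ± 0.72 (SD, n = 4 each), with a difference of -0.51 (95% interval -1.42 to 0.41, limma adjusted p = 0.918). The set difference was -1.08, with the lower set 2.11-fold higher (adjusted p = 0.0123). Within the sets the genotype difference was -0.64 and -0.37, and it ran from -0.83 without Cd151-/- mouse 3 to -0.26 without Cd151-/- mouse 1.

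Angpt2, the endothelial antagonist ligand of TEK, was higher in the higher-background set, as Flt1 was. Its leading probe read 9.79, 10.03, 11.19 and 10.39 in Cd151+/+ mice 1 to 4, and 11.22, 11.51, 10.29 and 10.12 in Cd151-/- mice 1 to 4. Every mouse of the higher set was above every mouse of the lower set. The genotype means were 10.35 ± 0.61 and 10.79 ± 0.68 (SD, n = 4 each), a difference of 0.44 (95% interval -0.41 to 1.28, limma adjusted p = 0.918). It was 0.29 and 0.58 within the sets, and ran from 0.19 without Cd151-/- mouse 2 to 0.72 without Cd151+/+ mouse 3. The set difference was 1.02, or 2.03-fold (adjusted p = 0.00855). The second Angpt2 probe was detected in 0 Cd151+/+ and 1 Cd151-/- mouse and gives no fold. For Angpt1 no value is given. The array lists 2 probes as Agpt, a symbol that the gene table pairs with no gene, and they were detected on 0 and 1 arrays. They were not taken as Angpt1, which does not say that the array lacks that gene.

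**Figure D3:**
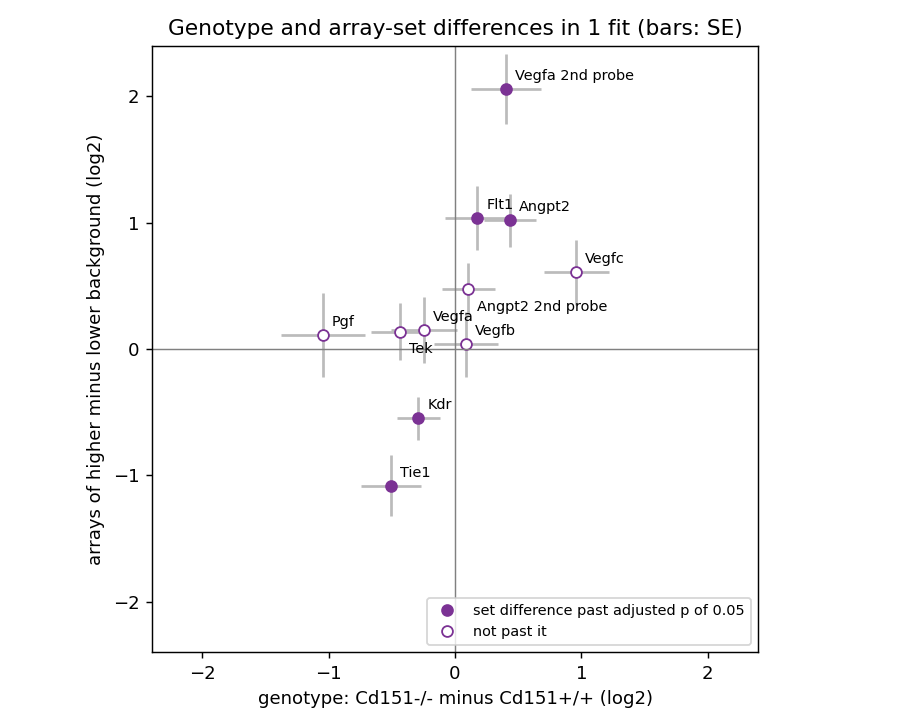
Log2 difference between genotypes (Cd151-/- minus Cd151+/+) against the log2 difference between sets of arrays (higher minus lower background) for each tested probe, from 1 limma fit with both terms, with SE bars; filled points passed an adjusted p of 0.05 for the set. Flt1, Angpt2 and the second Vegfa probe lie above 0 on the set axis, Tie1 and Kdr lie below it, and Vegfc (0.96) and Pgf (-1.05) lie farthest from 0 on the genotype axis.

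Between sets of arrays, 5 of the 11 probes passed an adjusted p of 0.05, against 23.9% of all probes. They were the second Vegfa probe, Flt1, Tie1, Angpt2 and Kdr. Kdr was near background and passed the detection filter only through 2 mice of the lower set, where it was higher, so its call carries no weight. Of the 8 probes detected on all 8 arrays 4 passed, against 26.8% of all probes so detected. Scaling the arrays to a common 75th percentile in place of quantile normalisation kept these 5 calls and their directions, but it moved the median set difference of all probes by -0.37, and the share of set calls that were higher in the higher-background set was then 19.5% in place of 55.4%. Of 11 tested endothelial markers, 1 was higher and 1 lower in the higher set at an adjusted p of 0.05 (limma), against the same 23.9% of all probes. Cdh5, the endothelial cadherin, was lower in the higher set by 1.28 (adjusted p = 0.00702). Sox17, an endothelial transcription factor, was higher by 1.40 (adjusted p = 0.00672). The part of the set in any single value was not tested beyond the fit with both terms.

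The endothelial markers were read beside the receptors, since Flt1, Tek, Tie1 and Angpt2 are known as transcripts of endothelial cells. Of 11 tested endothelial markers, 10 were lower and 1 higher in Cd151-/- mice, 0 passed adjustment or an unadjusted p of 0.05 (limma), and the median difference was -0.35. Their summed level lay between 16.14 and 16.71 in the controls and between 15.61 and 16.60 in the knockouts (two-sided exact permutation p = 0.20). The sum adds unlogged signals, so bright markers such as Egfl7 (control mean 14.25) weigh far more in it than Sox17 (8.46). Relative to that sum, the genotype difference of Tek was -0.084 in place of -0.44 and that of Tie1 -0.15 in place of -0.51. The differences of Angpt2 and Flt1 were 0.79 and 0.53 in place of 0.44 and 0.18. The part of endothelial content in the differences was not tested. The podocyte markers, read beside Vegfa, were lower for 7 of 7, with 0 past adjustment and 1, Plce1, at an unadjusted p under 0.05 (limma), and their summed level lay between 16.73 and 16.80 in the controls and between 16.52 and 16.82 in the knockouts.

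Among the 8 mice, some of these genes varied together, which is described here without a test because the 8 points share 2 sets of arrays. After subtraction of the genotype means, Flt1 and Angpt2 had the highest correlation of the 21 pairs among the 7 genes detected on all arrays, with r = 0.97, and r = 0.89 after subtraction of the set means too. The highest after that step was that of Vegfa and Tie1, with r = 0.26 before and r = 0.94 after. Vegfa and Tek had r = 0.82 and r = 0.81. Tek and Tie1, the receptor pair, had r = 0.21 before and r = 0.89 after the set means were removed. Cd151-/- mouse 4 read lowest of the 8 mice for Vegfa (10.89) and Tek (10.89), and lowest of its set for Tie1 (9.83). The same mouse had the lowest summed endothelial level (15.61) and the highest summed leukocyte level (12.15). How far the correlations of these genes rest on that mouse was not tested. Flt1 and Vegfb had r = -0.45 before and r = -0.94 after. The genes with a pattern most like that of Vegfa among 7354 candidates were Btg1 (r = 0.97), an antiproliferative gene, Dlgap4 (r = 0.97) and Eif4e3 (r = 0.97), over 8 mice. None was sought for Kdr, which was detected on 2 arrays.

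Of 70 further genes of the pathway, 68 were on the array and 56 were tested. Between the genotypes 24 were higher and 32 lower in Cd151-/- mice, with a median log2 difference of -0.093, and 0 passed adjustment (limma). At an unadjusted p under 0.05 there were 1 higher and 2 lower, 5.36% against 4.30% of all probes. With the set in the fit 10 of the 56 were under that p, beside 11.3% of all probes in the same fit.

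**Figure D4:**
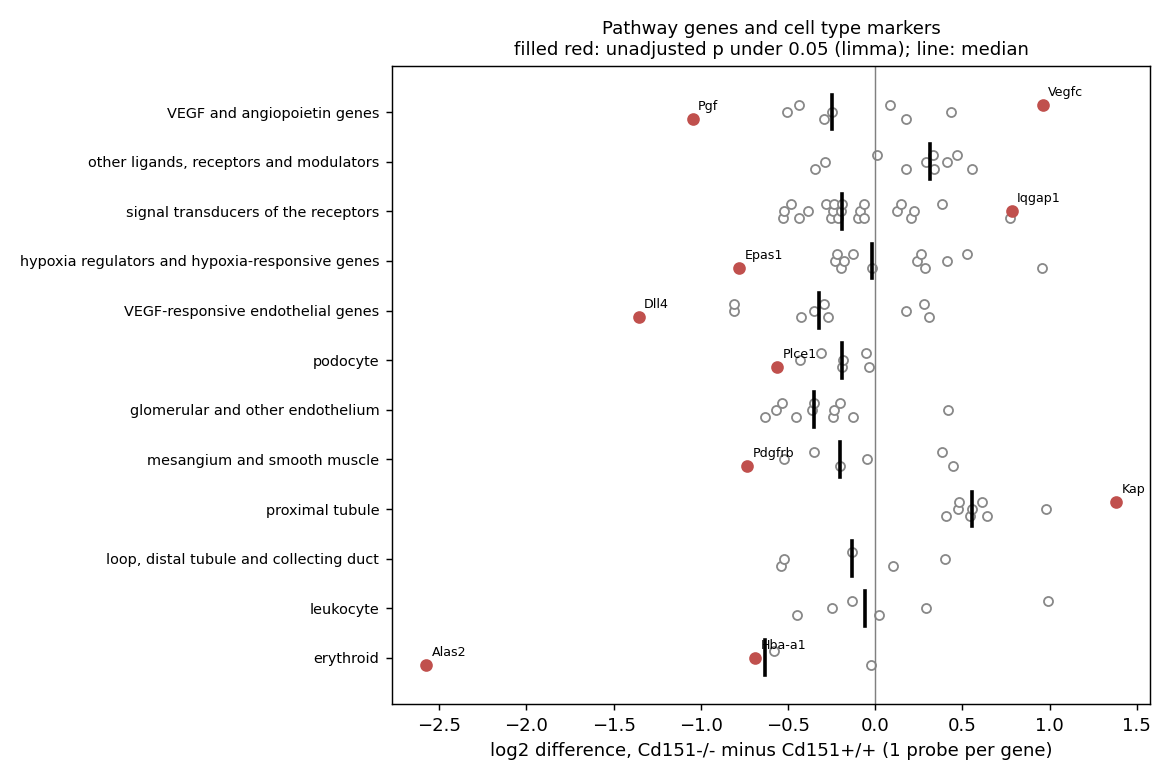
Log2 difference between Cd151-/- and Cd151+/+ mice for each tested gene of the VEGF and angiopoietin group, of 4 pathway lists and of 7 cell type marker lists (1 point per gene, its leading probe, 4 mice per genotype). The line marks the median of a list and red points an unadjusted limma p under 0.05; no point in any list passed adjustment.

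In the list of VEGF-responsive endothelial genes, 3 were higher and 7 lower of 10 tested, with a median of -0.32. Dll4, the Notch ligand that VEGF induces in endothelial tip cells, had the smallest p of all the pathway genes. It read 8.01, 8.35, 7.39 and 7.39 in Cd151+/+ mice 1 to 4, and 6.13, 6.79, 6.84 and 5.96 in Cd151-/- mice 1 to 4. The genotypes did not overlap, as was so for 2.31% of all probes. The means were 7.79 ± 0.48 and 6.43 ± 0.45 (SD, n = 4 each), a difference of -1.35 (SE 0.30), with controls 2.56-fold higher, a limma unadjusted p of 0.000944 and an adjusted p of 0.744. The two-sided exact permutation p was 0.0286. Within the sets the difference was -1.78 and -0.93, and the adjusted p with the set in the fit was 0.326. The flow-responsive transcription factors Klf2 and Klf4 each differed by -0.81 with unadjusted p-values of 0.0814 and 0.0813 and an adjusted p of 0.918 (limma). Within the sets Klf2 differed by -1.26 and -0.36, and it differed by -0.34 without Cd151-/- mouse 4. Klf4 differed by -1.56 and -0.062 within the sets, and by -0.49 without Cd151+/+ mouse 1. Esm1, Apln and Nr4a1 were not detected on any array.

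In the list of other ligands, receptors and modulators, 8 of 10 tested genes were higher in Cd151-/- mice, with a median of 0.31 and 0 at an unadjusted p under 0.05, and 3 of the 10 were detected on all 8 arrays. Vash2 was detected in 0 Cd151+/+ and 1 Cd151-/- mouse, so it entered the test only through the genotype where it was higher. Nrp2 was detected in 1 Cd151+/+ and 3 Cd151-/- mice. The count of directions therefore depends in part on the detection filter. Thbs1, which encodes the antiangiogenic matrix protein thrombospondin-1, was detected in 1 Cd151+/+ and 3 Cd151-/- mice, so that most control values were not above background. It differed by 0.47 (unadjusted p = 0.0612, adjusted p = 0.918, limma), by 0.17 with the deposited signals and by 0.21 with 75th percentile scaling. Apart from Dll4, which was lower in Cd151-/- mice, it was the only tested pathway gene whose genotypes did not overlap. Angpt4, a further angiopoietin, was detected in 1 Cd151+/+ and 4 Cd151-/- mice and differed by 0.41 (adjusted p = 0.918). Sparc, a matrix protein that binds VEGF, differed by -0.35 (adjusted p = 0.918). Flt4, the receptor of VEGF-C, was detected on 5 arrays and differed by -0.29, and Vegfd, its other ligand, differed by 0.34, both with an adjusted p of 0.918.

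Of 23 tested signal transducers of the receptors, 7 were higher and 16 lower in Cd151-/- mice, with a median of -0.19. Iqgap1, a scaffold protein that binds KDR, was 10.32 ± 0.21 in Cd151+/+ and 11.10 ± 0.74 in Cd151-/- mice (SD, n = 4 each), a difference of 0.78 with an unadjusted p of 0.0411 and an adjusted p of 0.918 (limma). Its 2 highest values, 11.57 and 11.85, were those of the Cd151-/- mice of the higher-background set, and its set difference was 0.76 (adjusted p = 0.0378). The kinase gene Mapk3 differed by -0.53 (unadjusted p = 0.0523) and Foxo1, a transcription factor that TEK signalling restrains, by -0.52 (unadjusted p = 0.0623), both with an adjusted p of 0.918.

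Of 13 tested hypoxia regulators and hypoxia-responsive genes, 6 were higher and 7 lower, with a median of -0.015. Epas1, which encodes the hypoxia-inducible factor HIF-2α and is high in endothelium, was 9.90 ± 0.55 in Cd151+/+ and 9.12 ± 0.30 in Cd151-/- mice (SD, n = 4 each). It differed by -0.78 (SE 0.29, unadjusted p = 0.0227, adjusted p = 0.918, limma), and by -0.54 and -1.02 within the lower and the higher set. Adm, the adrenomedullin gene, differed by 0.96 (unadjusted p = 0.174) and between sets by 1.66 (adjusted p = 0.0223). Its genotype difference was -0.057 in the lower and 1.97 in the higher set, and it ran from 0.50 without Cd151-/- mouse 2 to 1.63 without Cd151-/- mouse 4. Egln3, a prolyl hydroxylase gene, was detected in 0 Cd151+/+ and 2 Cd151-/- mice and so passed the detection filter only through the latter. Its log2 difference was 0.53 (SE 0.36, limma adjusted p = 0.918), and it was -0.060 in the lower and 1.12 in the higher set. With the Cd151+/+ values raised to the detection limit the fold was 1.04. That is not a minimum, since the Cd151-/- mean also includes undetected values.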

How the data were processed

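Glomerular RNA of 8 mice was read on 1-colour Illumina arrays, 1 mouse per array. The authors deposited signal intensity, neither background-subtracted nor normalised, and a detection p-value for each probe, the share of negative controls at least as bright. GenomeStudio is named in the submitters' processing notes. In R 4.3.3 with limma 3.58.1, background was inferred from the detection p-values, neqc was applied (offset 16, quantile normalisation), and genotypes were fitted (lmFit, eBayes). A probe entered the test if 1 or more arrays had a detection p of 0.05 or lower, and p-values were adjusted by Benjamini-Hochberg over the 14967 such probes. The set of arrays by background was added as a second term after the data were seen. Bounds were set against the lowest detected signal of each array. Array number and signal over background limit the precision (detected probes at a median of 3.23 to 4.96 times background). Detected probes numbered 11291 to 12359 per array.

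Symbols were matched to a RefSeq gene table (GRCm38.p6), 12036 of 18120 as they stood and 5204 by a synonym of no other gene. Promoters came from RefSeq, for 8 of the 10 genes. Of several probes of a gene, the one with the highest mean leads. In each pathway list the 3 genes with the smallest unadjusted p are named. Vegfd, Flt4, Cdh5, Sox17, Kap, Plce1, Pdgfrb, Cldn5, Alas2, Hba-a1, the undetected genes and the examples of markers were named after their values were seen. So were Lrp2, Pck1, Gatm, Nrp2 and Vash2. The members and lists were chosen with earlier results of these data known. Alternatives changed the background step (no normexp), the normalisation (cubic spline over 15 quantiles, or a common 75th percentile), the offset (50), the filter (none, or all 4 arrays of a genotype), the variance (trended, robust) and the weights (per array), added mouse number as a block, or left out 1 mouse. The limma fit between genotypes was tested on simulated normalised signals, which held no difference between sets of arrays. The values of 1 marker gene are not reported here. The differences between Angpt2 and Angpt1 and between Vegfa and Kdr within an array were not computed. No row was matched to Angpt1, and Kdr was detected on 2 arrays.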

Additional observations from a re-analysis of the deposited data

How the results depend on the processing

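Over 18 alternatives, 0 of the tested VEGF and angiopoietin probes passed adjustment between genotypes. Vegfc (0.65 to 1.25), Pgf (-1.28 to -0.46) and Dll4 (-1.64 to -0.80) kept their direction and an unadjusted p under 0.05 in all 18, with adjusted p-values from 0.0885, 0.0885 and 0.0750 up to 1.00. Epas1 stayed under that p in 14 of 18 and Iqgap1 in 11 of 18. VEGF and angiopoietin probes at an unadjusted p under 0.05 numbered 2 in every alternative except array weights, which gave 6, with 32.2% of all probes under that p. The further pathway genes under that p, 3 as reported, were 5 with the deposited signals, with the offset of 50 and with no detection filter, 26 with array weights, 10 with the set as a block, and 1 to 9 with a mouse left out. With a mouse left out the genotype difference crossed 0 for the leading Vegfa probe (-0.41 to 0.013), the second Vegfa probe (-0.17 to 0.92), Vegfb (-0.084 to 0.27), Flt1 (-0.15 to 0.48) and the second Angpt2 probe (-0.14 to 0.23, and -0.040 with 75th percentile scaling).

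The second Vegfa probe, Tie1 and Angpt2 passed between sets of arrays in all 16 alternatives run, Flt1 in all except without Cd151+/+ mouse 3, and Kdr not with the deposited signals, the cubic spline or the offset of 50, nor with most mice left out (adjusted p up to 0.130). The count passing was 3 to 5 with a mouse left out, 3 of them without Cd151+/+ mouse 3. Scaling to the 75th percentile reversed the set difference of the leading Vegfa probe (-0.038), Vegfb (-0.13), Pgf (-0.17), Tek (-0.024) and the second Angpt2 probe (-0.67). Array weights reversed that of Vegfa (-0.090), Pgf (-0.14) and Tek (-0.10). With a mouse left out these ran from -0.13 to 0.32 for Vegfa, -0.18 to 0.25 for Vegfb, -0.25 to 0.31 for Pgf and -0.012 to 0.30 for Tek. The cause was not tested. Same-numbered mice of the 2 genotypes had correlations of -0.58, -0.40, -0.53 and -0.0086. Each such pair spanned both sets of arrays, so these values cannot tell whether mouse numbers paired the samples. With the replicate block 0 VEGF and angiopoietin probes passed (4 of all probes did) and 2 had an unadjusted p under 0.05, as did 2 pathway genes, beside 2.81% of all probes.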

Other observations

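Markers of the remaining cell types are given as values. Of 7 tested markers of mesangium and smooth muscle, 2 were higher and 5 lower in Cd151-/- mice, 0 passed adjustment (limma), and Pdgfrb, the receptor through which endothelial platelet-derived growth factor recruits mesangial cells, differed by -0.74 (unadjusted p = 0.0399, adjusted p = 0.918). Their summed level ran from 14.06 to 14.51 in controls and from 13.97 to 14.70 in knockouts. The loop and distal tubule markers ran from 14.98 to 15.83 and from 14.87 to 15.47, the proximal tubule markers from 13.95 to 15.44 and from 14.83 to 15.70, and the leukocyte markers from 10.47 to 11.04 and from 10.63 to 12.15, with Ptprc, Itgam and Cd79a not detected. The erythroid markers ran from 15.22 to 15.61 in controls and from 14.13 to 15.19 in knockouts (two-sided exact permutation p = 0.0286, the smallest possible). That sum is mostly the signal of Hba-a1, an alpha globin, with a control mean of 15.41 against 9.64 for Alas2 and 9.27 for Slc4a1. For Hba-a1 alone the genotypes overlapped (two-sided exact permutation p = 0.0571). Alas2, the heme synthesis enzyme of red cell precursors, differed by -2.57 and Hba-a1 by -0.69, both with a limma adjusted p of 0.918. Cldn5, the endothelial tight junction gene, was 13.60 ± 0.13 in Cd151+/+ and 13.03 ± 0.50 in Cd151-/- mice (SD, n = 4 each), with no overlap and a limma adjusted p of 0.918.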
